A study of Mus musculus with 19 samples.

Results

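The genes described here are 10 nucleic acid sensors, adaptors and transcription factors of interferon induction, out of 19505 genes measured in mouse liver. They were taken by their annotated gene symbols: *Ddx58*, *Ifih1*, *Dhx58*, *Mavs*, *Sting1* (also Tmem173), *Cgas* (also Mb21d1), *Zbp1*, *Tlr3*, *Tlr7* and *Irf3*. All 10 were found on the array, each through 1 probe set. The set was selected on symbol by a rule written with the mutant-minus-control differences in log2 signal of these livers known, so those differences are given as a description. Where members past a threshold are counted, the count stands beside the share of all genes and is no test of the set.

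Cells recognise foreign or misplaced RNA and DNA with receptors in the cytosol and in endosomes. In the cytosol, RIG-I-like helicases signal through an adaptor on mitochondria, and the DNA sensor cGAS signals through STING on the endoplasmic reticulum. Both routes activate the kinase TBK1 and the transcription factor IRF3, which switches on interferon genes. Secreted interferon then acts through its receptor on many interferon-stimulated genes, and several of the sensors are themselves interferon-stimulated. In the liver, Kupffer cells, the resident macrophages, are among the cells that express endosomal Toll-like receptors.

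RNA came from the liver of 10 mutant (*Mmut*-ko/ki) and 9 control (*Mmut*-ki/wt) male C57BL/6N mice aged 20 weeks, with 1 Mouse Clariom S array per mouse. *Mmut* encodes methylmalonyl-CoA mutase, a mitochondrial enzyme of propionate breakdown, and its loss causes methylmalonic aciduria. The mutants carried 1 knockout allele and 1 knock-in allele (p.Met700Lys), the controls the same knock-in allele beside a wild-type one, so that no mouse was wild-type at the locus. Per the methods, all mice were kept on a diet rich in protein and the array mice were fed *ad libitum*. The labels state no treatment.

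*Mmut*, the targeted gene, had a log2 signal of 11.54 ± 0.25 in mutants and 13.20 ± 0.23 in controls (SD, n = 10 and 9), a difference of -1.66 with all 10 mutants below every control. Array medians ran from 5.19 to 5.25 in mutants and from 5.14 to 5.25 in controls, and any pair of arrays correlated at 0.975 to 0.989. Between 69.8% and 77.1% of probe sets were detected in mutants and between 68.0% and 72.7% in controls, with mutant 1 at the upper end. All 10 hepatocyte markers, among them *Alb* and *Ttr*, were detected on every array, and 0 of them passed an adjusted p of 0.05 (limma). Whole liver was sampled, and in such tissue a change in the number of cells of a type and a change in RNA per cell cannot be told apart.

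Differences below are mutant minus control on the log2 scale, with the standard error (SE) from limma. The helicases that sense RNA in the cytosol (*Ddx58*, *Ifih1* and *Dhx58*) were all higher in mutants, with no overlap between the genotypes. *Ddx58* encodes RIG-I, which binds RNA with an uncapped triphosphate end. Its log2 signal was 9.75 at the lowest, 10.09 at the median and 10.73 at the highest in mutants, against 7.80, 8.46 and 9.19 in controls. Every mutant was above every control. The means of 10.17 ± 0.38 in mutants and 8.51 ± 0.50 in controls (SD, n = 10 and 9) differed by 1.67 (SE 0.18), a 3.17-fold higher signal.

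*Ifih1* encodes MDA5, the sensor of long RNA duplexes. Its lowest, median and highest log2 signals were 11.16, 11.76 and 12.26 in mutants, against 10.05, 10.68 and 11.11 in controls. The gap between the genotypes was narrow, since the lowest mutant (mutant 3) and the highest control (control 8) were almost level, but no values overlapped. The means were 11.69 ± 0.30 in mutants and 10.63 ± 0.36 in controls, a difference of 1.06 (SE 0.15) or 2.09-fold.

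*Dhx58* encodes LGP2, a helicase that lacks the signaling domains of RIG-I and MDA5 and tunes their activity. It had log2 signals of 7.49 at the lowest, 7.95 at the median and 8.72 at the highest in mutants, against 6.58, 6.79 and 7.15 in controls. The controls lay close together while the mutants spread more widely, with mutants 1 and 10 at the top. Means of 8.01 ± 0.42 in mutants and 6.84 ± 0.21 in controls gave a difference of 1.17 (SE 0.15), or 2.25-fold.

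**Figure D1:**
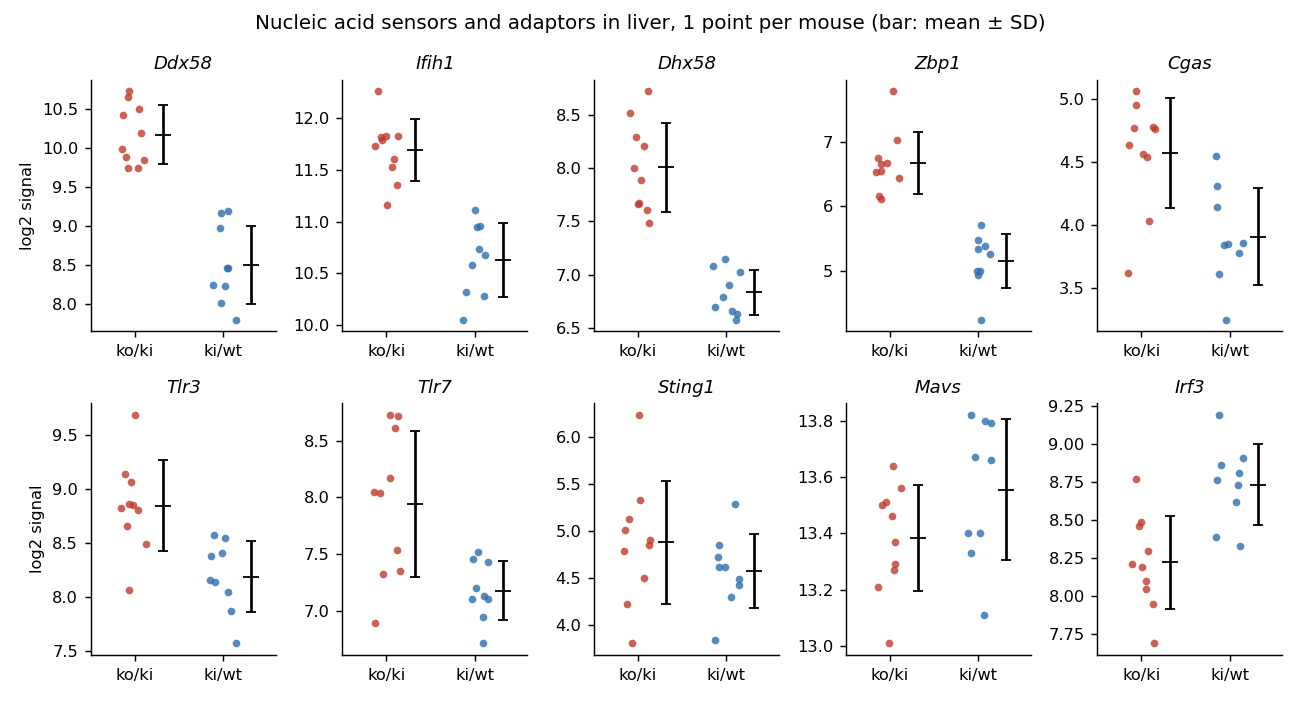
Log2 signal of the 10 genes, 1 point per mouse, with *Mmut*-ko/ki mice at the left and *Mmut*-ki/wt mice at the right of each panel (bars: mean ± SD, n = 10 and 9; vertical axes differ between panels). In *Ddx58*, *Ifih1*, *Dhx58* and *Zbp1* every mutant lies above every control, while in *Irf3* 7 of 10 mutants lie below every control.

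The promoters of *Ddx58* and *Ifih1* are shown because they are the members whose RefSeq window (GRCm38.p6, 250 bases before to 50 after the annotated start) held an interferon-stimulated response element (ISRE), the site that interferon-activated factors bind. That of *Irf3*, the member that was lower in mutants, is shown beside them. The windows, on the strand of the gene, are chr4:40239776-40240075 (minus strand) for *Ddx58*, chr2:62646206-62646505 (minus strand) for *Ifih1* and chr7:44997398-44997697 (plus strand) for *Irf3*. Capitals mark a match to GAAANNGAAA on either strand.
Ddx58: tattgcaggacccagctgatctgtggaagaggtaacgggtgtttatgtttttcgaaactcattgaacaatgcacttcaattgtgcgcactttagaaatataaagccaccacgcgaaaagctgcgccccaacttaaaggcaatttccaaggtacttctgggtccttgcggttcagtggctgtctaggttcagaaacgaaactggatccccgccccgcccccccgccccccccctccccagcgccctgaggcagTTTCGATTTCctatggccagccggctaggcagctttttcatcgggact
Ifih1: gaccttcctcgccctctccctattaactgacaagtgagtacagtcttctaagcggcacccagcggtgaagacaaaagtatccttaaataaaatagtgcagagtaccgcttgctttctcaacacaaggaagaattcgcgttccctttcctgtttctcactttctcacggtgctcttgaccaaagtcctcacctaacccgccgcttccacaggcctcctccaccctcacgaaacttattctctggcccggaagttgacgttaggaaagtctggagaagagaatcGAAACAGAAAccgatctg
Irf3: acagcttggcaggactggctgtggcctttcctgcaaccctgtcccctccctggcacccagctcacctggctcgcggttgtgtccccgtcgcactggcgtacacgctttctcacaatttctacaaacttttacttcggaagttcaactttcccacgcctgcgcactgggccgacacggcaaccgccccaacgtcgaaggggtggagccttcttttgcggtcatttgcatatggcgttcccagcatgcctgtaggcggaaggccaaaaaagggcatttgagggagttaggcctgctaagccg

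In *Ddx58* the match was TTTCGATTTC, at bases 3 to 12 after the start and on the opposite strand. In *Ifih1* it was GAAACAGAAA, at bases 33 to 42 after the start. Windows were matched for 6 of the 10 members (the 3 shown, *Mavs*, *Tlr3* and *Cgas*), and 2 of these 6 held the motif. The share was 3.94% among 15691 measured genes with a window, 3.44% among all 32851 windows, and 23 of 46 among the type I interferon-stimulated genes listed. A kappa B motif (GGGNNNNNCC) was present in 3 of 6 members (*Irf3*, *Tlr3* and *Cgas*) and in 61.0% of measured genes, and a gamma-activated site (TTCNNNGAA) in 0 of 6 members and 9.02% of measured genes. Such matches describe letters in a window, and the kappa B motif can overlap itself, so that neighbouring matches are not separate sites.

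*Mavs*, the adaptor on the outer mitochondrial membrane to which RIG-I and MDA5 couple, did not follow the helicases. Its log2 signal was 13.01, 13.41 and 13.64 (lowest, median and highest) in mutants, against 13.11, 13.66 and 13.82 in controls. The genotypes overlapped over most of their range, with 1 mutant below every control and 5 controls above every mutant. The mean was 13.38 ± 0.19 in mutants and 13.56 ± 0.25 in controls, a difference of -0.17 (SE 0.11).

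*Zbp1* encodes a sensor of left-handed RNA and DNA duplexes that can start necroptosis, a lytic form of cell death, through the kinase RIPK3. It had log2 signals of 6.11 at the lowest, 6.60 at the median and 7.78 at the highest in mutants, against 4.24, 5.26 and 5.70 in controls. No values overlapped, and mutant 6 stood highest of all mice. The means of 6.67 ± 0.47 in mutants and 5.15 ± 0.42 in controls differed by 1.52 (SE 0.19), or 2.87-fold, and by 1.40 without mutant 6.

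*Cgas* encodes the cytosolic DNA sensor that makes the cyclic dinucleotide cGAMP, the ligand of STING. It was dim, detected above background in 9 of 10 mutants and 7 of 9 controls, and was the only member not detected on all arrays. Its lowest, median and highest log2 signals were 3.62, 4.70 and 5.06 in mutants, against 3.25, 3.85 and 4.55 in controls. In 7 of 10 mutants it was above every control, and mutants 3, 8 and 9 lay within the controls' range. The means were 4.57 ± 0.44 in mutants and 3.91 ± 0.38 in controls, a difference of 0.66 (SE 0.17) or 1.58-fold.

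*Sting1*, the receptor for cGAMP, differed less between the genotypes than it varied within them. Its log2 signals were 3.80, 4.88 and 6.23 (lowest, median and highest) in mutants, against 3.84, 4.61 and 5.28 in controls. The ranges overlapped, with 2 mutants above and 1 below every control, and mutant 6 gave the top value. Means of 4.87 ± 0.66 in mutants and 4.57 ± 0.39 in controls differed by 0.31 (SE 0.22), and by 0.155 without mutant 6. Both means were below the array medians, although *Sting1* was detected on every array.

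The endosomal receptors were both higher in mutants, with overlap. *Tlr3*, the receptor for RNA duplexes in endosomes, had log2 signals of 8.07 at the lowest, 8.84 at the median and 9.69 at the highest in mutants, against 7.57, 8.16 and 8.58 in controls. In 8 of 10 mutants it was above every control, and mutant 9 was lowest. The means were 8.85 ± 0.42 in mutants and 8.19 ± 0.33 in controls, a difference of 0.66 (SE 0.17) or 1.58-fold.

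*Tlr7*, the endosomal receptor for single-stranded RNA, had log2 signals of 6.89, 8.05 and 8.73 (lowest, median and highest) in mutants, against 6.71, 7.13 and 7.52 in controls. In 7 of 10 mutants it was above every control, although mutant 2 at 7.54 was almost level with the highest control at 7.52. Mutants 5, 7 and 10 were within the controls' range, and the other 6 mutants were at 8.04 or above. The means were 7.94 ± 0.64 in mutants and 7.18 ± 0.26 in controls, a difference of 0.77 (SE 0.21) or 1.70-fold.

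*Irf3*, the transcription factor on which the cytosolic routes converge, went the other way. Its lowest, median and highest log2 signals were 7.69, 8.20 and 8.77 in mutants, against 8.33, 8.76 and 9.19 in controls. In 7 of 10 mutants it was below every control, and 4 controls were above every mutant. The mean of 8.22 ± 0.30 in mutants against 8.73 ± 0.26 in controls was a difference of -0.51 (SE 0.13), or 0.702 of the control signal.

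Of the 10 genes, 7 were higher and 1 lower in mutants past an adjusted p of 0.05 (limma, Benjamini-Hochberg over all genes), while 10.1% of all 19505 genes passed it. In 4 of them every mutant was above every control, which held for 0.933% of all genes, and in 0 of them every mutant was below every control, which held for 0.549%. The median difference was 0.71 over the 10 genes and 0.003 over all genes. These counts follow from how the set was proposed and are given as a description only.

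The mutants at the top and at the bottom differed from sensor to sensor, and a common order over all sensors was not tested. Mutant 6 was the highest mutant for 4 genes (*Sting1*, *Cgas*, *Zbp1* and *Tlr7*), mutant 2 for 3 (*Ddx58*, *Tlr3* and *Irf3*) and mutant 1 for 2 (*Ifih1* and *Dhx58*). For *Tlr7* the lead of mutant 6 was narrow, at 8.73 against 8.72 in mutant 1. Mutant 9 was the lowest for 3 genes (*Ddx58*, *Cgas* and *Tlr3*). The mouse with the highest *Sting1* had a *Dhx58* signal of 7.66, near the low end of the mutants. The mouse with the highest *Dhx58* had a *Sting1* signal of 5.01.

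**Figure D2:**
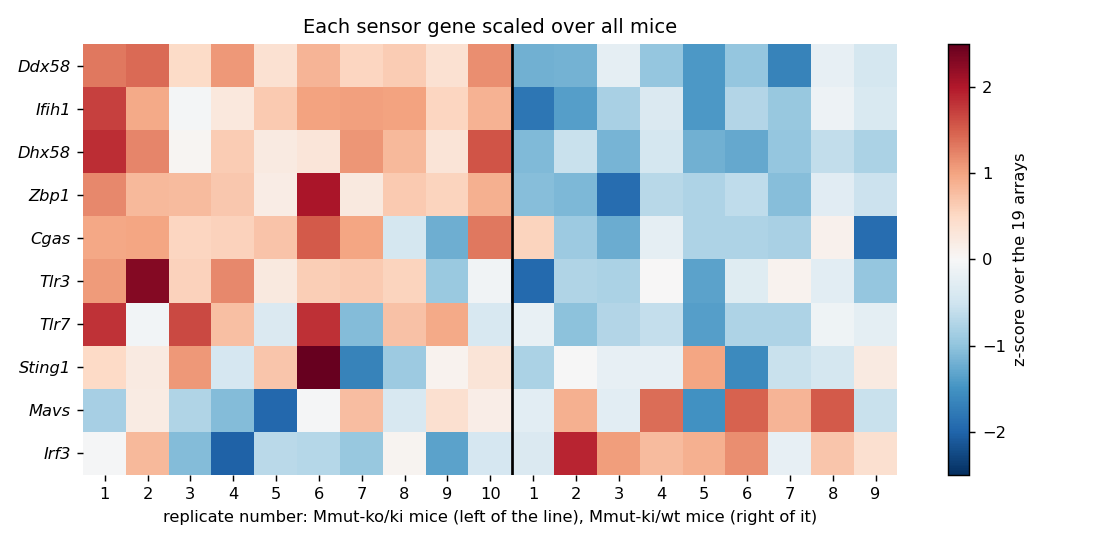
Each gene as z-scores over the 19 arrays (colour scale, SD units), genes down the page, *Mmut*-ko/ki mice 1 to 10 left of the line and *Mmut*-ki/wt mice 1 to 9 right of it. The upper 4 rows part the genotypes completely, the lower rows do so in part or not at all, and mutant 6 stands out in *Zbp1* and *Sting1*.

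Whether the sensors moved together from mouse to mouse was asked within each genotype, which the choice of genes did not use. Among the 10 mutants, Pearson's r over the 45 pairs of genes ran from -0.34 to 0.756 with a median of 0.216, and 33 pairs were above 0. Among the 9 controls it ran from -0.674 to 0.756 with a median of 0.189, and 31 pairs were above 0. After adjustment over the 45 pairs of each genotype, 0 pairs passed in mutants and 0 in controls by permutation test, and an unadjusted p under 0.05 was reached by 6 pairs in mutants and 3 in controls. The pair *Ddx58* and *Dhx58* had r = 0.739 (permutation p = 0.0183, adjusted 0.223) and rho = 0.745 (permutation p = 0.0165, adjusted 0.504) in mutants, and r = 0.585 without the 2 mice farthest from the median *Ddx58*. For *Sting1* and *Zbp1* in mutants, r of 0.756 (permutation p = 0.0183, adjusted 0.223) with rho of 0.515 (permutation p = 0.134, adjusted 0.504) became 0.0617 without the 2 mice farthest from the median *Sting1*, so that it rested on those mice.

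Outside the set, the genes that varied most like each sensor after removal of the genotype means were searched. The search ran among 10840 genes detected on all arrays, over 19 mice and without a test. Among so many genes the highest r is large through the search alone, so the names are a description. For *Zbp1* they were *Gbp7* (r = 0.842), *Ube2l6* (r = 0.841) and *Spi1* (r = 0.82). For *Tlr7* they were *Ifi211* (r = 0.878), *Sirpa* (r = 0.781) and *Iqgap1* (r = 0.77). *Gbp7* and *Ube2l6* are interferon-stimulated genes, *Ifi211* belongs to the PYHIN family of DNA-binding proteins, and *Spi1* and *Sirpa* are expressed in myeloid cells.

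For the helicases other genes came first, and whether the neighbours of the sensors truly differ was not tested. For *Ddx58* they were *Pla2g15* (r = 0.776), *Upp2* (r = 0.74) and *Pdlim1* (r = 0.735). For *Ifih1* they were *Bola3* (r = 0.868), *Coq5* (r = 0.801) and *Unc93b1* (r = 0.797), of which the last escorts endosomal Toll-like receptors to their compartment. For *Dhx58* they were *Tatdn3* (r = 0.778), *Camta1* (r = 0.753) and *Mpv17l2* (r = 0.752). No gene was among the nearest 3 of more than 1 sensor, as the lists of the remaining members also differed: *Jrkl* (r = 0.802), *Fars2* and *Agtr1a* for *Cgas*, *Mitd1* (r = 0.867), *Ropn1* and *Slc43a2* for *Tlr3*, and *Slc35c2* (r = 0.801), *Serpinb1b* and *Trp53rka* for *Irf3*.

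Markers of macrophages tended to be higher in mutants, and within the mutants only *Sting1* followed them past the threshold after adjustment. All 14 measured Kupffer cell and macrophage markers were higher in mutants by the mean. Of these 4 rose (28.6%, against 4.73% of all genes) and 10 did not pass. Those that rose were *Vsig4* by 0.87 (adjusted p = 0.00435), *Clec4f* by 0.72 (adjusted p = 0.0183), *Adgre1* by 0.55 (adjusted p = 0.0262) and *Cd5l* by 0.67 (adjusted p = 0.0346, limma for each). Only *Vsig4* also passed with both the t-test and the Wilcoxon test. The mean log2 signal of the 14 markers ran from 8.46 to 9.93 with a median of 8.80 in mutants, and from 8.19 to 8.94 with a median of 8.44 in controls. Only 3 mutants exceeded every control, and mutant 6 was highest.

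Within the mutants, *Sting1* followed the marker mean closely, with r = 0.937 (permutation p = 2e-05, adjusted 0.0004 over 20 relations) and rho = 0.891 (permutation p = 0.0013, adjusted 0.026). The relation was r = 0.894 without the 2 mice farthest from the median of the markers. Among the controls, over a narrower range of marker levels, r was -0.328 (exact permutation p = 0.386, adjusted 0.859) and rho was -0.55 (exact permutation p = 0.133, adjusted 0.536). *Tlr7* had r = 0.685 (permutation p = 0.0156, adjusted 0.104) and rho = 0.794 (permutation p = 0.00824, adjusted 0.0718) in mutants, and *Zbp1* r = 0.836 (permutation p = 0.0114, adjusted 0.104) and rho = 0.515 (permutation p = 0.134, adjusted 0.536), neither past the threshold. Without the 2 mutants farthest from the median of the markers, r was 0.582 for *Tlr7* and 0.481 for *Zbp1*. For *Ddx58* and *Ifih1* r was near 0 in mutants (-0.01 for both, permutation p = 0.988 and 0.97). In controls the highest relation was that of *Cgas*, with r = 0.717 (exact permutation p = 0.0302, adjusted 0.151), rho = 0.817 (exact permutation p = 0.0108, adjusted 0.0718) and r = 0.878 without the 2 mice farthest from the median of the markers. It did not pass either, and *Cgas* in mutants had r = 0.313. That any relation differs between the genotypes was not tested.

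**Figure D3:**
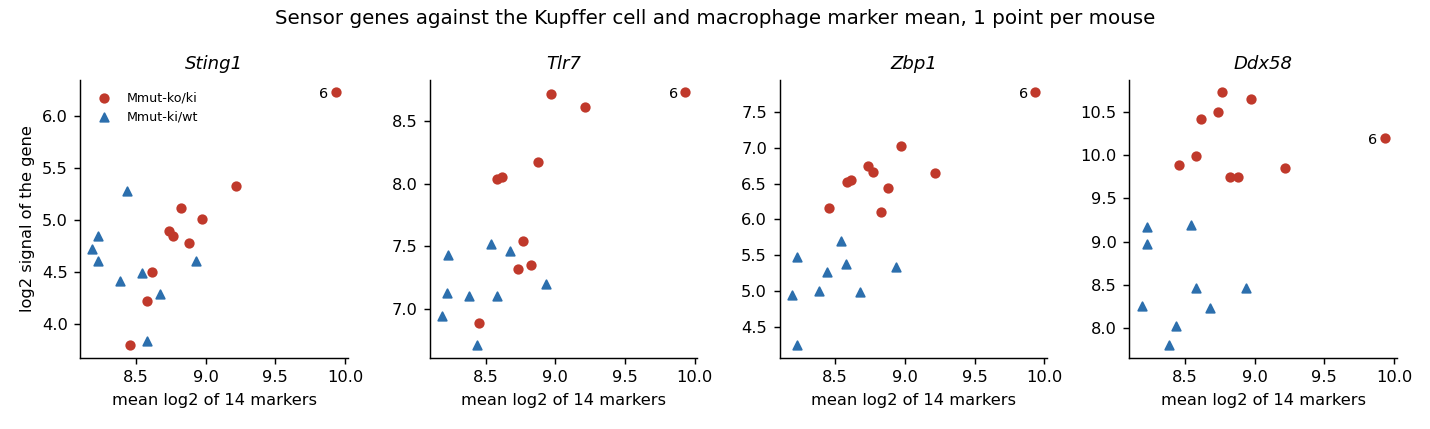
Log2 signal of *Sting1*, *Tlr7*, *Zbp1* and *Ddx58* (vertical axes) against the mean log2 signal of 14 Kupffer cell and macrophage markers (horizontal axis), 1 point per mouse, circles for *Mmut*-ko/ki and triangles for *Mmut*-ki/wt. Mutant 6, labelled 6, has the highest marker mean at 9.93; *Sting1* climbs with the markers among mutants (r = 0.937), and *Ddx58* does not.

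With the marker mean as a covariate, a setting chosen after seeing the data, some differences stayed close to the main fit and others did not. The differences of *Ddx58*, *Ifih1* and *Dhx58* were 1.70 (SE 0.22), 1.05 (SE 0.18) and 1.28 (SE 0.18), each closer to the value without it than 1 SE. *Zbp1* was at 1.14 (SE 0.18) with the covariate, *Tlr3* at 0.65 (SE 0.20), *Cgas* at 0.44 (SE 0.20) and *Tlr7* at 0.39 (SE 0.21). *Sting1* turned to -0.13 (SE 0.22), while *Mavs* at -0.20 (SE 0.14) and *Irf3* at -0.47 (SE 0.16) stayed close to their values without it. Past the threshold were then 4 of the 10 genes (*Ddx58*, *Ifih1*, *Dhx58* and *Zbp1*), beside 5.34% of all genes. The marker mean is itself tied to the genotype, so this fit also removes genotype difference that it shares with the markers. It also gives both genotypes the same slope on the markers, although r of *Sting1* was 0.937 in mutants and -0.328 in controls. Whether a difference changed between the fits was not tested.

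**Figure D4:**
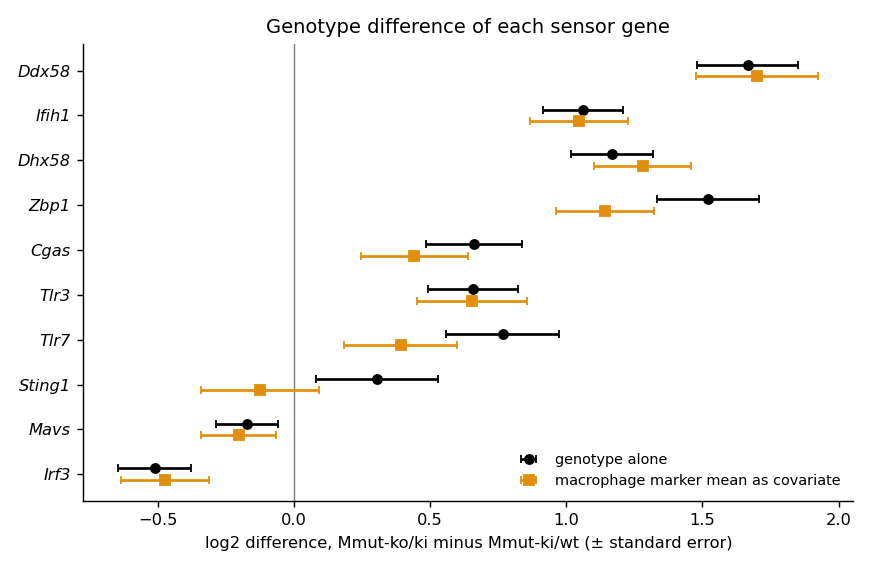
Difference of each gene on the log2 scale (horizontal axis, *Mmut*-ko/ki minus *Mmut*-ki/wt, bars: SE), from genotype alone (circles) and with the mean of 14 macrophage markers as a covariate (squares). *Ddx58*, *Ifih1*, *Dhx58*, *Tlr3*, *Mavs* and *Irf3* hardly differ between the fits, whereas *Zbp1*, *Cgas*, *Tlr7* and *Sting1* are lower with the covariate.

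Most genes that carry the signal from the sensors to the interferon genes did not pass the test. Of 44 measured, 6 rose and 4 fell, with a median difference of 0.07, where 4.73% of all genes rose and 5.33% fell. *Irf7*, the interferon-inducible partner of *Irf3*, rose most, to 10.48 ± 0.51 in mutants against 7.01 ± 0.49 in controls, a difference of 3.47 (SE 0.21, adjusted p = 2.5e-11, limma) or 11.1-fold, with every mutant above every control. *Trim25*, the ubiquitin ligase long studied as an activator of RIG-I, rose by 1.14 (adjusted p = 4.9e-04), *Ifi35* by 0.81 (adjusted p = 1.5e-05) and *Ppp1cc*, a catalytic subunit of the phosphatase that activates RIG-I and MDA5, by 0.50 (adjusted p = 0.00102). *Fadd*, a death domain adaptor, fell by 0.78 (adjusted p = 0.00154). The other genes that fell were named after their values were seen. *Ppp1ca* (-0.51, adjusted p = 0.0138), another catalytic subunit of that phosphatase, went the opposite way to *Ppp1cc*. The rest were *Pqbp1* (-0.38, adjusted p = 0.0252) and *Tank* (-0.54, adjusted p = 0.0415), the last a call that 12 of 19 mice could each undo when left out. *Ticam1*, the adaptor of TLR3, differed by -0.53 (adjusted p = 0.0986) and *Rnf135*, a ligase that acts on RIG-I, by 0.40 (adjusted p = 0.235), neither past the threshold.

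Among 46 genes that restrain the sensors or remove their ligands, 9 rose (19.6%) and 1 fell (2.17%), against 4.73% and 5.33% of all genes. The median difference was 0.09. *Usp18*, which takes ISG15 off proteins and dampens the interferon receptor, rose to 11.79 ± 0.51 in mutants against 7.69 ± 0.49 in controls, by 4.10 (SE 0.21, adjusted p = 1.6e-12, limma) or 17.2-fold. *Isg15*, the ubiquitin-like modifier, rose by 1.89 (adjusted p = 6.2e-07) and *Herc6*, its ligase in mice, by 1.63 (adjusted p = 3.4e-07). *Adar*, the enzyme that edits RNA duplexes and so hides them from MDA5, rose by 1.18 (adjusted p = 1.3e-07), and *Rnaseh2a*, a subunit of the nuclease that clears RNA-DNA hybrids, by 0.55 (adjusted p = 7.2e-04). *Trim21* (0.50, adjusted p = 0.0961) and *Irak3* (0.48, adjusted p = 0.105) did not pass. The gene that fell, named after its values were seen, was *Nlrx1* (-0.41, adjusted p = 0.0381), a mitochondrial protein of the NLR family, a call lost when any of 11 mice was left out.

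Of 45 other sensors and effectors of foreign nucleic acid, 16 rose (35.6%) and 1 fell (2.22%), against 4.73% and 5.33% of all genes. The median difference was 0.21. *Oasl2*, of the oligoadenylate synthetase family, rose by 2.18 (adjusted p = 4.9e-08) and *Oas1a* by 1.58 (adjusted p = 9.9e-08, limma for each). Of the PYHIN family, *Ifi213* rose by 1.74 (adjusted p = 8.9e-08), *Ifi207* by 1.36 (adjusted p = 9.7e-07) and *Ifi211* by 1.54 (adjusted p = 3.8e-06). Both families hold close paralogs in the mouse whose probes can share signal, so the values of single members are uncertain. *Prkdc* (-0.44, adjusted p = 0.229) and *Hnrnpa2b1* (0.34, adjusted p = 0.0826) did not pass, and *Dhx36* (-0.41, adjusted p = 0.0485), named after its value was seen, fell, a call lost when any of 15 mice was left out.

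None of the interferon genes themselves passed the test. Of 19 measured, 0 passed with limma, with the methods' t-test or with the Wilcoxon rank sum test, 1 had an unadjusted p under 0.05 (lower in mutants), and the median difference was -0.06. Over all genes, 10.1% passed with limma. *Ifnb1*, the gene that IRF3 is best known to switch on, had a log2 signal of 4.32 ± 0.34 in mutants and 4.17 ± 0.29 in controls, a difference of 0.14 (SE 0.14, adjusted p = 0.625). Only 4 of the 19 were detected on all arrays (*Ifnb1*, *Ifna5*, *Ifna7* and *Ifnl3*) and 4 on none (*Ifna4*, *Ifna11*, *Ifna12* and *Ifnz*), and the alpha genes are near-identical copies. For the 4 detected on no array, neither genotype gave a level above background that could be compared. *Ifng*, named after its values were seen, was detected in 4 of 10 mutants and 0 of 9 controls, with means of 4.15 ± 0.60 in mutants and 3.85 ± 0.39 in controls and an adjusted p of 0.448 (limma).

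Among 20 genes of the interferon receptors and of JAK-STAT signaling, 4 rose (20.0%) and 1 fell (5.0%), against 4.73% and 5.33% of all genes. The median difference was 0.08, and the share that fell was close to that over all genes. *Irf9* and *Stat2*, components of the factor that binds the ISRE, rose by 0.90 (adjusted p = 9.4e-05) and 0.70 (adjusted p = 0.0045, limma for each). The chains of the type I receptor moved apart, as *Ifnar2* rose by 0.70 (adjusted p = 1.4e-04) and *Ifnar1* fell by 0.41 (adjusted p = 0.0306), a call that was lost without mutant 3, mutant 6, control 3, control 4 or control 9 (adjusted p up to 0.185 over all alternatives). *Ifngr1*, a chain of the receptor for interferon gamma, rose by 0.57 (adjusted p = 0.00245).

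Of 59 genes listed as type I interferon-stimulated, outside the sensors, 46 rose (78.0%) and 0 fell, against 4.73% and 5.33% of all genes. The median difference was 1.08. The list also holds genes induced by interferon gamma, such as *Cxcl9*, so it does not tell the types of interferon apart. *Ifit3* rose to 12.18 ± 0.77 in mutants against 8.98 ± 0.52 in controls, by 3.20 (SE 0.26, adjusted p = 3.9e-09, limma) or 9.19-fold. *Cmpk2*, a mitochondrial nucleotide kinase, rose by 3.12 (adjusted p = 6.8e-09), *Apol9b* by 2.66 (adjusted p = 2.9e-10), *Bst2*, which tethers budding virus, by 2.66 (adjusted p = 7.5e-09) and *Xaf1* by 2.38 (adjusted p = 3.0e-11). In each of these 5 every mutant was above every control. *Cxcl9* (1.27, adjusted p = 0.145) did not pass with all mice and did without mutant 6 (0.71, adjusted p = 0.013), whose signal of 14.15 stood far above the other mutants. *Trim14* (-0.52, adjusted p = 0.216) did not pass.

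**Figure D5:**
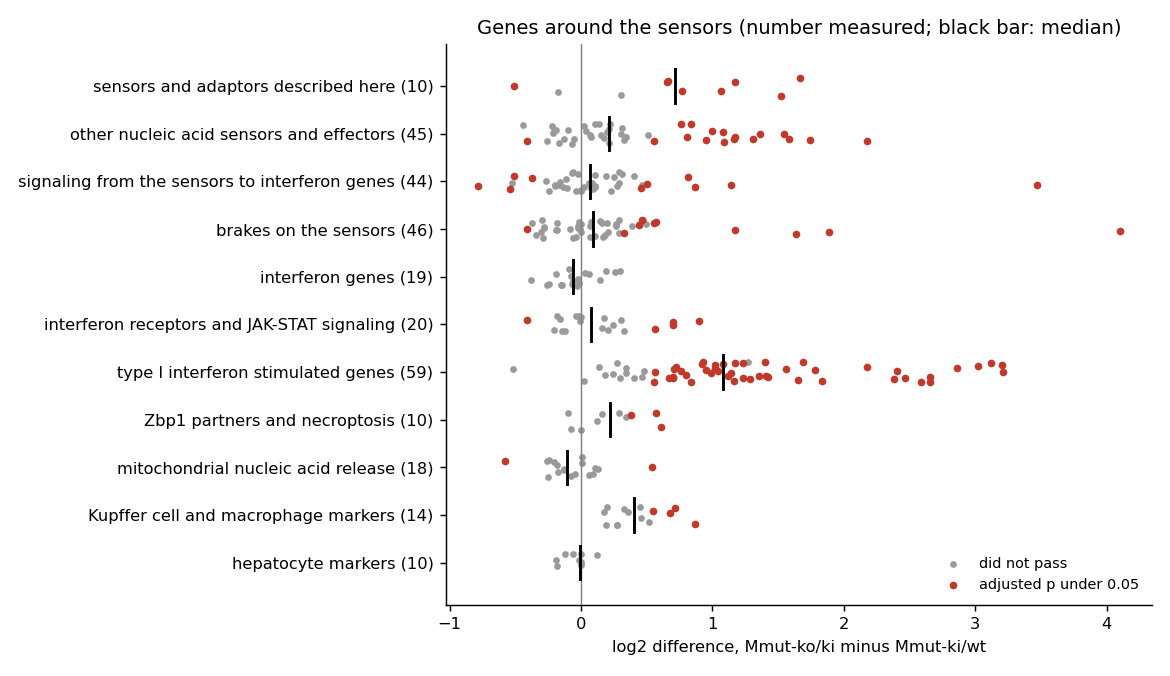
Difference of each gene on the log2 scale (horizontal axis, *Mmut*-ko/ki minus *Mmut*-ki/wt), 1 point per gene and 1 row per gene list, with the number measured in brackets, a bar at the median and red points for an adjusted p under 0.05 (limma). Interferon-stimulated genes lie far to the right (median 1.08), interferon genes and hepatocyte markers lie around 0, and the 10 sensors and adaptors (median 0.71) spread from -0.51 to 1.67.

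Around *Zbp1*, 3 of 10 genes of necroptosis and inflammasome signaling rose (30.0%) and 0 fell, against 4.73% and 5.33% of all genes. The median difference was 0.22. *Mlkl*, the pore-forming executor of necroptosis, rose by 0.61 (adjusted p = 0.0156), *Casp1* by 0.57 (adjusted p = 0.038) and *Casp4* by 0.38 (adjusted p = 0.0423, limma for each). All of them were highest in mutant 6, as was *Zbp1*, and only *Mlkl* still passed without that mouse. *Il1b* (0.34, adjusted p = 0.335) and *Casp6* (0.29, adjusted p = 0.306) did not pass.

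Of 18 genes that keep mitochondrial nucleic acid in place or release it, all detected on every array, 1 rose (5.56%, against 4.73% of all genes) and 1 fell (5.56%, against 5.33% of all genes), with a median difference of -0.10. These shares are close to those over all genes. *Lonp1*, a protease of the mitochondrial matrix, rose by 0.54 (adjusted p = 0.00247) and *Fastk*, the founder of a family of mitochondrial RNA-binding proteins, fell by 0.57 (adjusted p = 0.0202, limma for both). *Exog* (-0.26, adjusted p = 0.300) and *Bak1* (-0.25, adjusted p = 0.292) did not pass.

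Of the markers of other liver cells, hepatocytes included, 5 passed the threshold. They were 1 of 10 sinusoidal endothelial, 2 of 16 lymphocyte, 1 of 10 stellate cell and 1 of 5 cholangiocyte markers. None of the 10 hepatocyte markers passed, and 10.1% of all genes did. By the mean, 9 of 10 sinusoidal endothelial, 13 of 16 lymphocyte and 7 of 8 monocyte and neutrophil markers were higher in mutants. So were 6 of 10 dendritic cell, 5 of 10 stellate cell and 3 of 5 cholangiocyte markers. The mean of the endothelial markers was above every control in 7 mutants, that of the macrophage markers in 3. *Clec4g*, a lectin of sinusoidal endothelium, rose by 0.67 (adjusted p = 8.7e-05), 1 of 10 such markers. Of 16 lymphocyte markers *Klrk1* rose by 0.52 (adjusted p = 0.048) and *Cd4* fell by 0.55 (adjusted p = 0.0466, limma for all), and of stellate cell and cholangiocyte markers *Reln* fell by 0.44 (adjusted p = 0.0196) and *Sox9* by 0.77 (adjusted p = 0.0079). None of 8 monocyte and neutrophil markers and none of 10 dendritic cell markers passed, and the defining markers *Flt3* and *Krt19* were detected on no array. The part of these cell types, or of macrophages, in the sensor differences was not tested. The fit with the macrophage covariate cannot decide it, because the marker mean is tied to the genotype.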

How the data were processed

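Total RNA of each liver was amplified and hybridized to a Mouse Clariom S array. From the scans the authors made SST-RMA values (robust multiarray averaging in the array maker's software), and they deposited 1 log2 signal per probe set and array beside a detection p-value. The values were used as deposited. The array has 22206 probe sets. A single gene is annotated for 19572 of them, and 2634 stayed unnamed and unused. For 55 genes with several probe sets the brightest was kept, which left 19505 genes without a filter on dim ones (10849 were detected on all 19 arrays at p under 0.05). Columns of values left unused: 0. The genome build of the array design is not given in the sources used here, so gene coordinates are not printed. Promoter windows come from RefSeq.

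Groups followed the sample labels. The genotype contrast, mutant minus control, was fitted gene by gene with limma (version 3.58.1; R version 4.3.3) and tested two-sided after eBayes, with Benjamini-Hochberg adjustment over all genes and a threshold of 0.05. Rose or fell means past that threshold. The t-test and the Wilcoxon test, both named in the methods, were run as alternatives, beside other normalizations, a detection filter, array weights, a replicate block and leaving out each mouse. Relations across mice used Pearson's r and Spearman's rho with permutation p (exact for 9 controls, 100000 resamples for 10 mutants), adjusted over 45 pairs of sensors in each genotype or over 20 relations with the macrophage markers. The number of arrays limits the precision. Relations and figures were computed in Python 3.11.15 with scipy 1.17.1, matplotlib 3.10.9, pandas 2.3.3 and numpy 2.4.6. The limma step was tested on simulated data with known shifts.

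The 10 genes and all lists were chosen with earlier results of these data known. Lists were written from general knowledge. Of each pathway list, up to 5 genes past the threshold with the smallest adjusted p are named, and up to 2 with the largest difference among those that were detected on all arrays and did not pass. Of marker lists, up to 4 that passed are named. For each sensor past the threshold the 3 genes with the highest r of genotype-centred values are named. Listed genes without a probe set under that symbol, such as *Traf3* and *Ripk1*, were not used here.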

Additional observations from a re-analysis of the deposited data

Results flagged for a closer look

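In some groups a single mouse lay far from the others by Dixon's test, which by chance marks about 1 in 20 groups. It marked 10 of 148 groups (74 named genes and marker means, in each genotype), and none of the 10 sensors was among them.

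Mutant 6 was the far mouse in 4 of these groups. Its log2 signal was 14.15 for *Cxcl9*, a chemokine gene induced by interferon gamma, and 9.53 for *Ifi35*. Its mean over the Kupffer cell and macrophage markers was 9.93 and over the lymphocyte markers 5.19, each the highest of the mutants. The same mouse had the highest *Sting1*, *Cgas*, *Zbp1* and *Tlr7* of the mutants.

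Control 1 was lowest of the controls for *Rnf135* at 5.60 and for *Fastk* at 11.02. Control 8 was highest of the controls for *Usp18* at 8.86, and it was also the control with the highest *Ddx58*, *Ifih1*, *Zbp1* and *Tlr7*. Among mutants, *Ifnar2* reached 14.20 in mutant 1, *Ifngr1* 10.37 in mutant 3 and *Clec4g* 12.40 in mutant 9.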

How the results depend on the processing

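The count of sensors past the threshold, a description as in the report, was 8 with all mice and 8 without any 1 mouse, with each normalization and with the replicate block, and 7 with the methods' t-test and with the Wilcoxon test, in which *Tlr7* was lost. It was 4 with the marker mean as a covariate, chosen after seeing the data (*Cgas*, *Tlr3*, *Tlr7* and *Irf3* were lost). In that fit *Tlr3* and *Irf3* kept 99.5% and 92.7% of their differences, with larger SEs (0.20 and 0.16). *Cgas* and *Tlr7* kept 66.9% and 51.3%. That fit gave 1042 genes in place of 1962 over all genes, 6 of signaling, 6 of brakes, 3 of receptors and JAK-STAT, 0 around *Zbp1*, 1 of mitochondrial release, 0 macrophage markers and 1 other marker. The macrophage markers past the threshold were 2 with the methods' t-test and 1 with the Wilcoxon test. Without control 1 and mutant 6 together, also chosen after seeing the data, 1 interferon gene fell (*Ifne*, -0.48, adjusted p = 0.0497, limma) and *Trim14* fell by 0.73 (adjusted p = 0.0465).

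Leaving out each mouse in turn gave 1674 (without control 8) to 2220 (without control 1) genes over all. The lists ranged from 16 to 18 for other sensors, 7 to 10 for signaling, 7 to 12 for brakes, 0 to 0 for interferon genes, 4 to 6 for receptors and JAK-STAT, 44 to 47 for interferon-stimulated genes, 1 to 3 around *Zbp1*, 2 to 2 for mitochondrial release, 2 to 5 for macrophage markers and 3 to 6 for other markers, and the median of the sensors from 0.66 to 0.771. Around *Zbp1* the count was 1 without mutant 5, 6 or 8 or control 2, 5, 6 or 9. Macrophage markers were at 2 without mutant 3 or control 2, 3 or 5. Calls near the threshold turned on single mice: that of *Casp1* was lost when any of 12 mice was left out, *Casp4* of 12, *Cd4* of 12, *Klrk1* of 14, *Cd5l* of 9 and *Adgre1* of 4. *Hnrnpa2b1* passed without mutant 1 or 8, *Ticam1* without control 1, *Trim21* without mutant 1 or 5 and *Irak3* without mutant 7.

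Mice with the same replicate number did not deviate together (correlations of -0.169 to 0.105 over 9 pairs, 1 of them over 0.1), so the numbers do not pair them. With the replicate block, which leaves out mutant 10, 1488 genes passed, 1 around *Zbp1* and 2 other markers. No difference of a named gene changed sign, except those of *Sting1* and *Cxcl9* (-0.13 for both) with the covariate, which passed in neither fit. The signal near background limits what can be said of *Cgas* and of the interferon genes that were not detected on all arrays. *Sting1* was detected on all arrays but was also dim, with means of 4.87 in mutants and 4.57 in controls.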
